A study of Mus musculus with 12 samples.

Results

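The genes described here are the variable (V) segments of the T cell receptor alpha and beta chains. A table row was a member if its symbol started with Trav or Trbv and its counts summed over all 12 libraries reached 100. Of 56941 rows, 133 were members, 111 Trav and 22 Trbv. Of the other Trav rows 19 fell below the minimum, 9 of them at 0, and of the other Trbv rows 13 fell below it, 7 of them at 0. The lowest member totals were 108 counts (Trav) and 1106 counts (Trbv), and the highest totals left out were 94 and 23.

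The libraries were bulk RNA-seq of CD8+ T cells sorted from Panc02 tumours, a mouse pancreatic cancer line, in wild type C57BL/6J mice given an isotype control antibody or an antibody to PD-1, an inhibitory receptor of T cells. Sorted cells were DAPI-negative, CD45.2-positive, CD8-positive and either negative or positive for asGM1, the glycolipid asialo-GM1. Each of the 4 groups (isotype asGM1-negative, isotype asGM1-positive, anti-PD-1 asGM1-negative, anti-PD-1 asGM1-positive) held 3 libraries numbered 1 to 3. No gate on CD3 or the receptor itself is named, and the sources used here do not state the age of the mice. The labels do not say that a number is an animal, nor whether mice were pooled. The p-values therefore describe variation among these libraries, part of which may be technical.

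Each developing T cell joins 1 V and 1 J segment into its alpha chain gene, and V, D and J segments into its beta chain gene, and passes the joined genes to its daughter cells. A clone that has divided many times therefore carries its V segments into the RNA of the whole sample. In a bulk sample the counts of a V segment reflect how many cells use it and how much receptor RNA each cell holds, and fewer cells of a type and less RNA per cell cannot be told apart.

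In the reference annotation all 111 Trav members lie on the plus strand of chromosome 14. Of the Trbv members 21 lie on the plus strand of chromosome 6 and 1 on the minus strand. Sequences were read from the GENCODE M21 transcripts of build GRCm38 by gene ID, which matched all 133 members. The files use build mm39, so no coordinates are given. The segments that stood out most in each asGM1-negative library are the ones on which the comparison of libraries turns. Their last 60 bases are shown 5′ to 3′, with capitals marking the last cysteine codon that follows a tyrosine codon by 1 codon, the position at which the V segment ends its own fold and the junction with the J segment begins.
Trav13-1: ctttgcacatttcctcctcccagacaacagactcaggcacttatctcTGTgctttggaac
Trav17: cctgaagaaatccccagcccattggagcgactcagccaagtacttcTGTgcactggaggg
Trav7-2: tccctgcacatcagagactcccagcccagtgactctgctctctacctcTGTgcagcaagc
Trav3-3: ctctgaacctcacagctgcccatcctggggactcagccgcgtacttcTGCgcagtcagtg
Trav7d-3: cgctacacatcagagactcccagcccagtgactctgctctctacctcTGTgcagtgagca
Trav1: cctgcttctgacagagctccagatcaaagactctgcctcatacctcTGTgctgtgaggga
Trbv5: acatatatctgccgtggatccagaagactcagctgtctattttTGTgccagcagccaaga
Trbv17: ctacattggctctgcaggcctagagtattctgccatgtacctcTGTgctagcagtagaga
Trbv13-1: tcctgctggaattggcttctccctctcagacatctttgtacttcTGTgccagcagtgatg
Trbv4: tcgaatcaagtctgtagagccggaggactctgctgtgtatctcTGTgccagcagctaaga
Trbv14: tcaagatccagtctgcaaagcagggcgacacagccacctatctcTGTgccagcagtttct

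The sixth Trbv segment, Trbv19, held no match to that pattern in its last 60 bases and is printed without capitals. The pattern was found in 130 of the 133 members.
Trbv19: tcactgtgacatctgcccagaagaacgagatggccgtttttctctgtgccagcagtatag

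The alpha locus of the mouse holds duplicated blocks, and the letters d and n in a symbol mark the copies. Over up to 250 bases at the 3′ end, 42 of the 111 Trav members were identical to another member, and 71 were at least 98% identical to one. None of the 22 Trbv members reached 95% identity with another. How reads were shared among identical copies is not given in the sources used here, so the counts of such copies are uncertain one by one. Trav7-2 and Trav7d-2 were identical over 250 bases and held 13482 and 13954 counts. Trav12n-2 and Trav12d-2, also identical, held 11225 and 11603 counts. Among the 49 Trav pairs at least 98% identical, the root-transformed shares of both copies had a median Pearson correlation of 0.86 over the 12 libraries, which share these reads, against -0.02 for the 5916 pairs below 90%. Trav3n-3 and Trav3d-3, identical over 250 bases, appear again below. Their last 60 bases are the same.
Trav3n-3: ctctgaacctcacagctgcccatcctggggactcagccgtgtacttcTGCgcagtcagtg
Trav3d-3: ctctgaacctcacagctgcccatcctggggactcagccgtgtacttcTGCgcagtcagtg

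Library totals ran from 58148469 to 73206178 counts. Trav members held 27399 to 39242 counts and Trbv members 28407 to 75298 counts per library. The genes of the CD8 T cell list (Cd8a, Cd8b1, Cd3e, Cd3d and Trac) summed to between 6257 and 8685 CPM in every library (CPM, counts scaled to a common library total). B cell genes summed to at most 7.16 CPM.

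The shares of V segments in a library told the libraries apart by their number within a treatment. The share of a segment is its counts as a percentage of the counts of its family in that library, and is not corrected for transcript length, so it compares 1 segment across libraries. In isotype replicate 1 Trav13-1 took 18.3% of Trav counts in the asGM1-negative library and 25.5% in the asGM1-positive library, and 0.225% to 3.84% in the other 10. Trbv5 took 19.3% and 23.3% of Trbv counts there, against 1.39% to 16.1% elsewhere. Both stood high in the pair of libraries with that number.

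In isotype replicate 2 Trav17 took 5.76% and 3.40% in the asGM1-negative and asGM1-positive library, and at most 0.217% in the other 10. Trbv19 took 11.5% and 24.8% there, against 0.0890% to 8.63% elsewhere. Trav17 therefore reached a share of 1% in no other library.

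In isotype replicate 3 Trav7-2, counted beside its copy Trav7d-2, took 10.7% and 8.66%, against 0.400% to 3.93% elsewhere. Trbv17 took 22.6% and 12%, against 0.0127% to 1.42% in the other 10 libraries. For Trbv17 both libraries of the pair lay above all others.

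In anti-PD-1 replicate 1 Trav3-3 took 15.6% and 7.87%, against 0.129% to 1.73% elsewhere. Trbv13-1 took 29.1% and 20.6%, against 3.36% to 12.8% elsewhere. Trbv13-1 was common in all libraries, with its lowest share in the anti-PD-1 asGM1-positive library of replicate 2.

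In anti-PD-1 replicate 2 Trav7d-3 took 13.6% and 27.8%, against 0.0199% to 2.36% elsewhere. Trbv4 took 17.8% and 30.1%, and it was also high in isotype asGM1-positive replicate 1, at 17.1%. That library is the highest of the other 10 for Trbv4.

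In anti-PD-1 replicate 3 Trav1, the alpha segment joined in the invariant receptor of MAIT cells, took 13.8% and 16.8%, against 0.0971% to 1.67% elsewhere. Trbv14 took 17.1% and 31.4%, against 0.135% to 6.02% elsewhere. Traj33, which MAIT cells join to Trav1, took 5.99% and 4.39% of Traj counts in that pair, below the 15.5% and 11% of anti-PD-1 replicate 1. The 5 invariant T cell and MAIT genes summed to 86.2 and 97.8 CPM in that pair, of which Trav1 itself made up 78.7 and 93.2. Zbtb16, a transcription factor of such cells, was at 0 in both libraries of that pair and in the whole isotype asGM1-positive group. It reached at most 0.314 CPM in any library. The segment of invariant natural killer T cells, Trav11, and its identical copy Trav11d took at most 0.247% and 0.262% in any library.

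**Figure D1:**
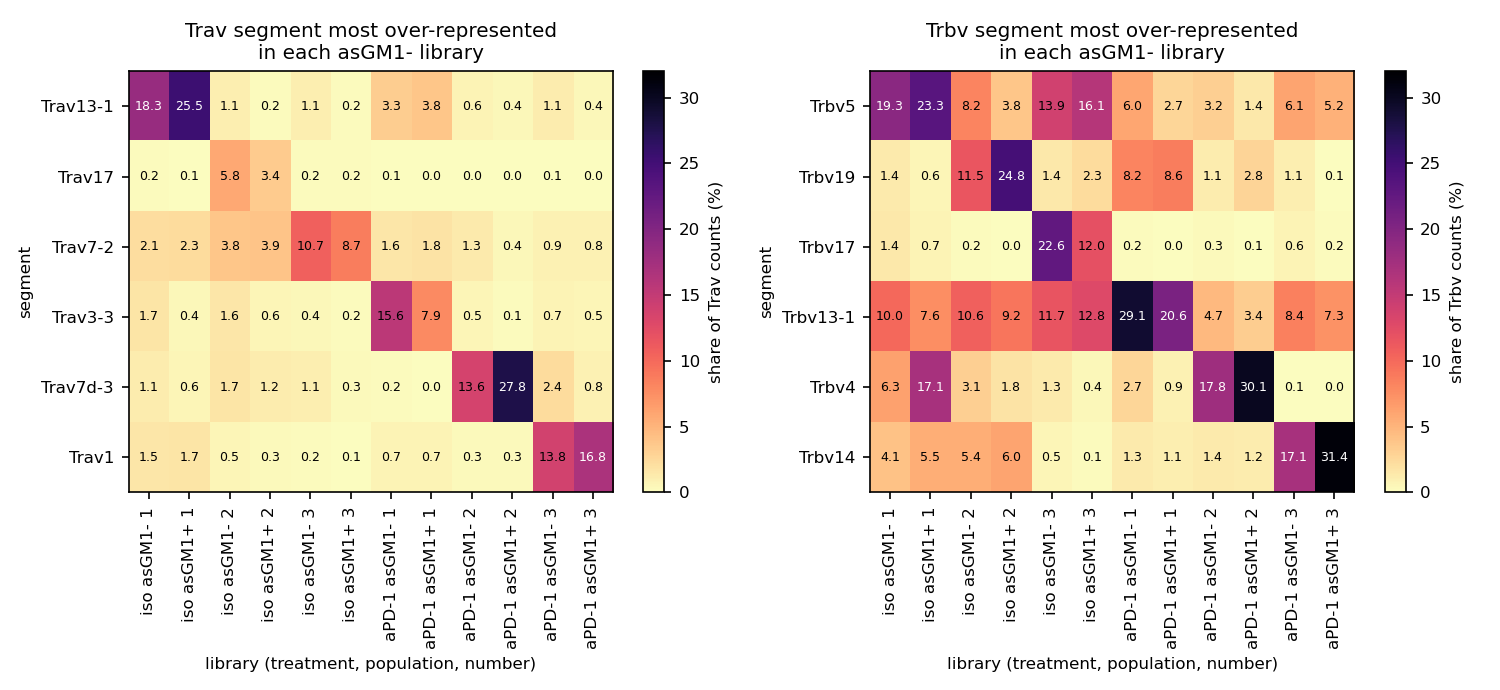
Share of Trav counts (left) or Trbv counts (right), in percent, of the segment most over-represented in each asGM1-negative library, shown in all 12 libraries, ordered by treatment (iso, isotype; aPD-1, anti-PD-1) and number, with asGM1- and asGM1+ side by side. The highest asGM1- and asGM1+ share of each segment falls in the same pair of columns, for example Trbv14 at 17.1% and 31.4% in anti-PD-1 replicate 3.

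Each of these 12 segments was chosen in the asGM1-negative library alone, as the one with the largest share over the median of the other 5 asGM1-negative libraries. In the asGM1-positive libraries, which were not used for the choice, all 6 Trav and all 6 Trbv segments had their highest share in the library with the same treatment and number. Their mean excess over the median of the other 5 asGM1-positive libraries was 14.4 ± 10.1 percentage points (SD, n = 6) for Trav and 21.1 ± 7.78 for Trbv. With libraries matched to another number of the same treatment it was 0.130 and -0.862 points. The exact permutation test over all 36 matchings within treatment gave p = 0.0278 for each, one-sided, which is the smallest p these matchings can give. Chosen in the asGM1-positive library instead, the same segment was named in 3 of 6 pairs for Trav and 4 of 6 for Trbv. The segments named only in asGM1-positive libraries were Trav7-5 (15.5% against 4.96% in the asGM1-negative library of isotype replicate 2), Trav19 (13.0% against 6.60%, isotype replicate 3), Trav6-1 (16.2% against 6.10%, anti-PD-1 replicate 1), Trbv16 (21.0% against 17.8%, isotype replicate 3) and Trbv20 (30.6% against 12.4%, anti-PD-1 replicate 1). Of these, Trbv16 ranked 3 among the 6 asGM1-negative libraries and the others first.

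Over whole families the same pairs stood out. The overlap of 2 libraries is the sum over segments of the smaller of the 2 shares, 100% where the shares are equal. Between asGM1-negative and asGM1-positive libraries of the same treatment and number, Trav overlap was 69.5% to 78.5%, with a mean of 75.0 ± 3.61 (SD, n = 6). Between populations with another number of the same treatment its mean was 31.9%. Trbv overlap was 72.1% to 84.5% within pairs, with a mean of 78.5 ± 4.41, against 47.5%. Every library overlapped most with the library of its own treatment and number in the other population, for both families. The exact permutation test over 36 matchings gave p = 0.0278 for each family, one-sided, and Benjamini-Hochberg adjustment over the 6 matching tests left 0.0278.

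The J segments, which the choice of members did not use, also overlapped more within pairs. Traj overlap was 77.4 ± 5.09% within pairs and 51.9% with another number, and Trbj overlap 87.2 ± 3.28% and 73.2% (exact permutation p = 0.0278 for each, one-sided). The most over-represented Traj row of an asGM1-negative library was highest in its own asGM1-positive partner in 6 of 6 pairs, as with Traj26 in isotype replicate 1 (16.7% and 26.0% of Traj counts). For Trbj this held in 4 of 6 pairs. Traj7 was the largest Traj row in 11 of the 12 libraries, and Traj18, joined in the invariant receptor of natural killer T cells, ran from 0.909% to 3.35%.

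A number shared across treatments went with no such overlap. Between populations, Trav overlap of libraries with the same number but the other treatment was 21.5% to 36.5%, with a mean of 31.1%, against 32.9% for another number. For Trbv these means were 39.8% and 46.8%. Within isotype, Trav overlap between populations with another number was 37.1% to 45.6%, and within anti-PD-1 18.0% to 28.7%; this difference between treatments was not tested.

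**Figure D2:**
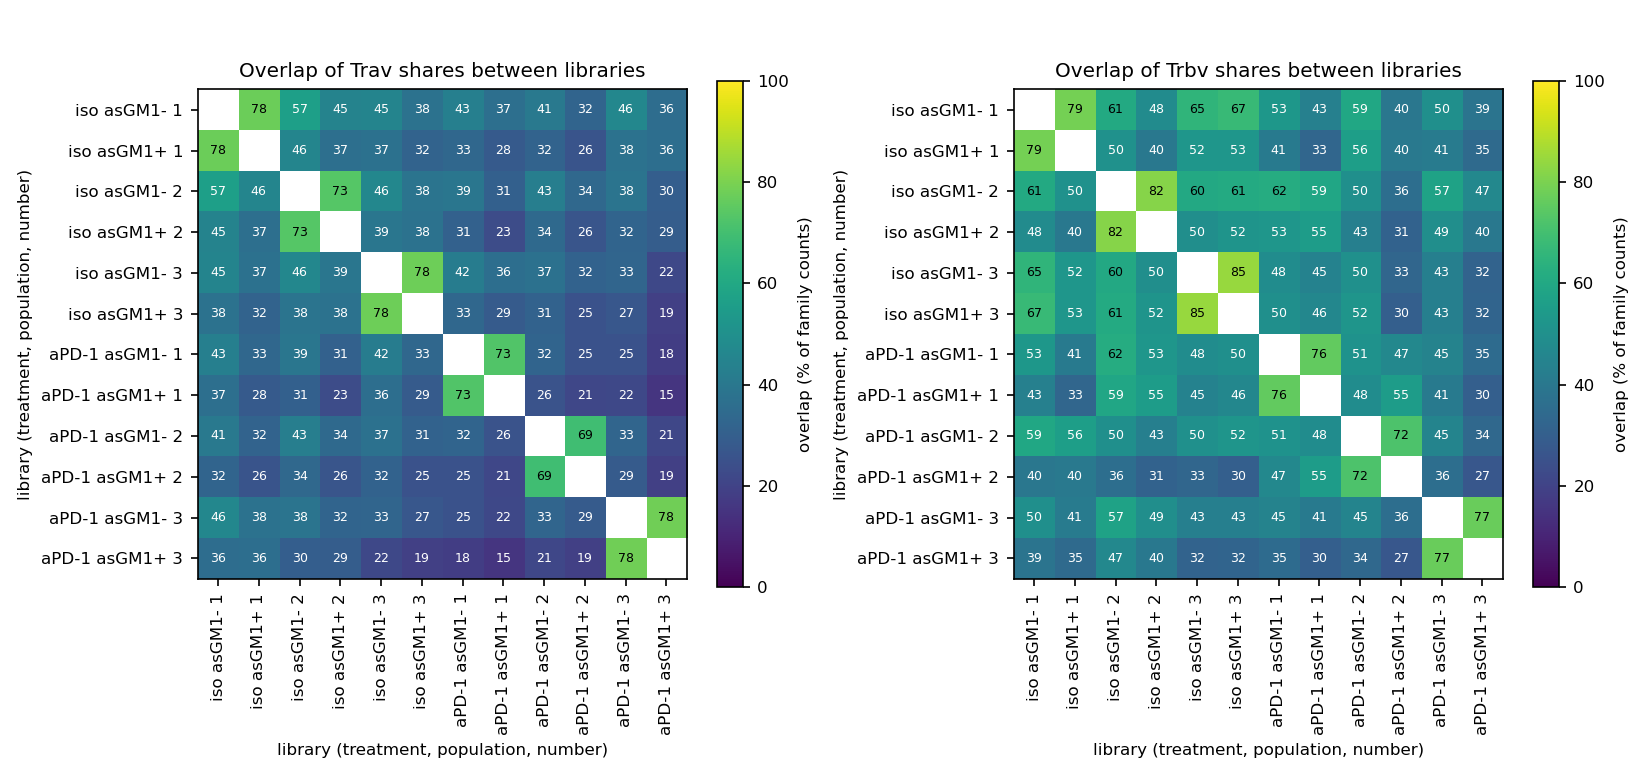
Overlap of Trav shares (left) and Trbv shares (right) between each 2 of the 12 libraries, as a percentage of family counts, in the order of treatment and number. The bright squares beside the diagonal are the 6 pairs of the same treatment and number, with Trav overlaps of 69.5% to 78.5% and Trbv overlaps of 72.1% to 84.5%.

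By mean share over the 12 libraries, Trav13-1 (4.69%), Trav10n (4.24%) and Trav7d-3 (4.23%) led the alpha family, and each rested on a few libraries, with medians of 1.10%, 1.54% and 1.11%. Trav10n reached 16% in anti-PD-1 asGM1-positive replicate 3 and 12.2% in isotype asGM1-positive replicate 1. Among beta segments Trbv16 led with a mean of 12.9% and a range of 4.81% to 21.6%, followed by Trbv13-1 (11.3%) and Trbv5 (9.09%). The mean share of the pair with the highest level was at least 5 times that of the median pair for 53 of 111 Trav members and 10 of 22 Trbv members. Some rows are members through 1 pair alone, such as Trav11n, with 78 and 110 counts in anti-PD-1 replicate 3 and 0 elsewhere. For such rows this excess follows from the count minimum. Identical copies were counted separately, and the same count over all genes was not made.

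Among other beta segments Trbv13-2 ran from 1.29% to 19.6%, highest in isotype asGM1-positive replicate 2. Trbv13-3 took 8.37% and 8.86% in anti-PD-1 replicate 2 and at most 1.69% in the other 10 libraries. Trbv1 took 10.9% and 9.15% in anti-PD-1 replicate 3, 5.49% and 4.30% in anti-PD-1 replicate 2, and at most 1.55% elsewhere. Trbv29 stayed between 0.0360% and 2.28%.

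**Figure D3:**
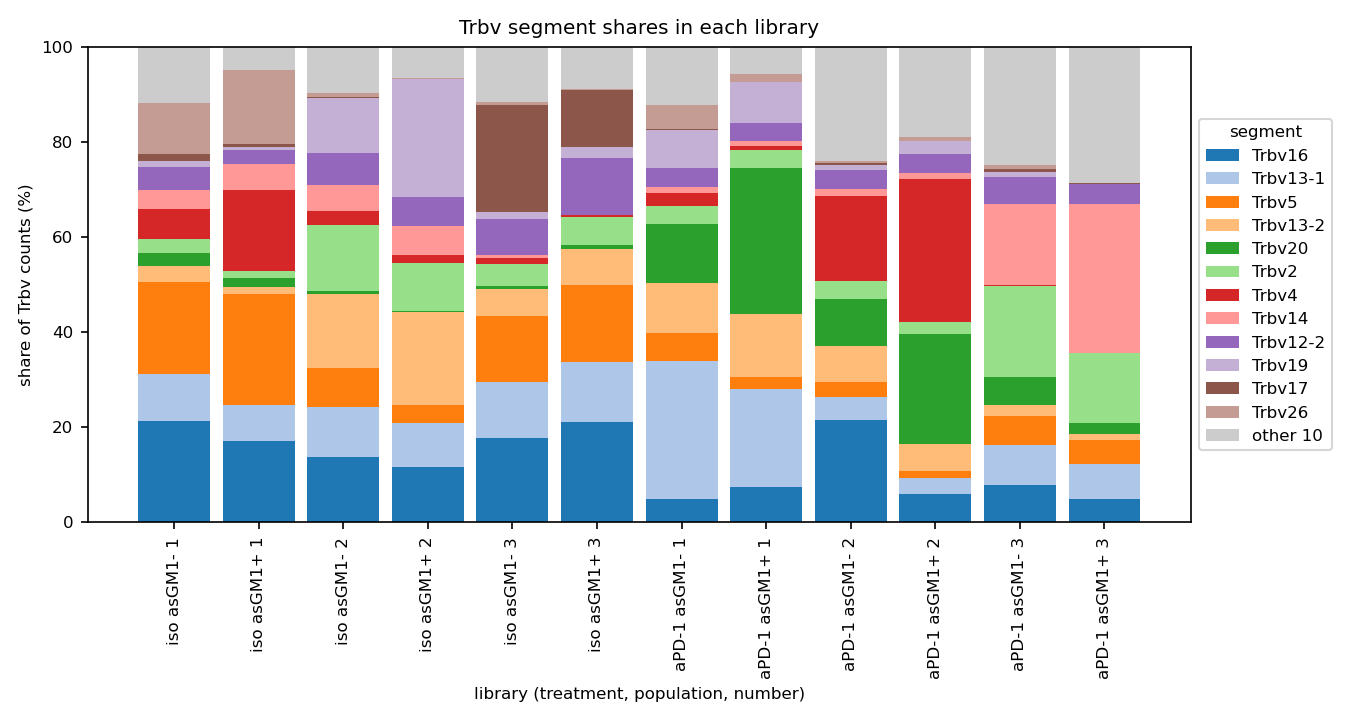
Stacked shares of Trbv counts in each library, in percent, for the 12 segments with the highest mean share and for the other 10 summed, ordered by treatment and number. Neighbouring asGM1- and asGM1+ bars of 1 number hold the same large blocks, such as Trbv17 in isotype replicate 3 and Trbv14 in anti-PD-1 replicate 3.

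For V segments, most of the spread between libraries lay between the 6 pairs. Of the sum of squares of log2 CPM over the 12 libraries, a median of 86.4% lay between pairs for 109 Trav members that passed the expression filter and 87.6% for the 22 Trbv members, against 59.6% for all 18657 genes tested. This part includes the difference between treatments. Between pairs within a treatment the medians were 71.2%, 73.3% and 32.7%. The median biological coefficient of variation was 0.988 for Trav, 0.803 for Trbv and 0.235 for all genes without the pair in the model. Adding the pair to the model gave 0.413, 0.318 and 0.186.

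Usage was spread over fewer segments in asGM1-positive than in asGM1-negative libraries, a difference that did not pass after adjustment. The effective number of segments, the inverse Simpson index, is the number of equally used segments that would give the same concentration. For Trav it was 19.4, 38.9 and 24.7 in isotype asGM1-negative libraries 1 to 3 and 10.4, 19.99 and 19.7 in their asGM1-positive partners. Under anti-PD-1 it was 18.6, 16.5 and 16.9 in asGM1-negative and 16, 8.10 and 10.8 in asGM1-positive libraries. It was lower in the asGM1-positive library of 6 of 6 pairs, with means of 14.2 ± 5.10 against 22.5 ± 8.56 (SD, n = 6). The exact sign-flip permutation test over 6 pairs gave p = 0.03125, two-sided, the smallest it can give, and Benjamini-Hochberg adjustment over the 4 paired tests on usage and family share gave 0.125. A test at this smallest p passes the adjusted threshold only if most of the 4 tests reach it, a limit set by the design. With rows added together where their symbols differ only by the letters d and n, which joins identical copies and less similar relatives, the means were 9.30 and 13.3 (exact permutation p = 0.03125).

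For Trbv the effective number was 8.53, 9.64 and 7.65 in isotype asGM1-negative libraries and 6.78, 7.01 and 7.85 in asGM1-positive ones. Under anti-PD-1 it was 7.52, 8.86 and 9 against 5.84, 6.02 and 5.83. It was lower in asGM1-positive libraries in 5 of 6 pairs, with isotype replicate 3 the exception, and the means were 6.56 ± 0.807 against 8.53 ± 0.816 (exact sign-flip permutation p = 0.0625, two-sided; 0.125 after adjustment over the 4 tests). With the Shannon index, which weighs rare segments more, the Trbv value was lower in 6 of 6 pairs (exact permutation p = 0.03125). Of single segments, 17 of 111 Trav and 4 of 22 Trbv members (Trbv1, Trbv12-1, Trbv17 and Trbv29) had a lower share in the asGM1-positive library of all 6 pairs, and 0 had a higher share in all 6. Of those 17, 16 had a mean share below 1%, Trav3-3 being the exception. They include both rows of identical copies, such as Trav7d-5 and Trav7n-5. Shares in a library are parts of 1 total, so small segments lose share where large ones gain. These counts are therefore not separate from the effective number.

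Markers of other cell types and states moved with the population beside this difference. Ccr7, a homing receptor of naive T cells, was at 68.3 to 105 CPM in isotype asGM1-negative and 9.89 to 23.9 in asGM1-positive libraries, and at 67.8 to 73.7 against 21.6 to 37.0 under anti-PD-1. Tcf7, a transcription factor of naive and memory T cells, was at 47.1 to 90.4 against 5.27 to 15.4 CPM and at 55.9 to 84.3 against 3.43 to 12.9. S1pr1, a receptor for leaving tissue, was at 11.4 to 25.1 against 1.29 to 1.94 CPM and at 21.7 to 38.5 against 8.06 to 12.2. These 3 genes were lower in every asGM1-positive library than in every asGM1-negative one of the same treatment. Lef1, a partner of Tcf7, was at 12.7 to 21.4 against 8.04 to 11.4 CPM under isotype and overlapped under anti-PD-1 (52.05 to 56.4 against 52.04 to 57.2).

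The 5 CD4 and regulatory T cell genes summed to 229 to 259 CPM in asGM1-negative against 168 to 182 CPM in asGM1-positive libraries under isotype and to 242 to 272 against 196 to 225 under anti-PD-1. Il2ra was the largest part of each sum and overlapped between populations, as did Ikzf2. Foxp3 was at 16.5 to 41.9 against 1.91 to 4.32 CPM under isotype and at 23.0 to 59.3 against 3.54 to 7.13 under anti-PD-1. Cd4 was at 9.42 to 12.6 against 1.20 to 5.41 and at 6.61 to 15.1 against 4.20 to 5.43 CPM. Cd40lg was also lower in every asGM1-positive library of a treatment. The 7 macrophage genes went the other way, 48.6 to 57.1 against 193 to 272 under isotype and 47.2 to 83.5 against 147 to 277 under anti-PD-1. None of the defining genes of both lists was at 0 throughout a group. The 3 NK cell genes summed to 24.2 to 27.9 against 29.6 to 42.4 CPM under isotype and to 16.4 to 30.6 against 24.8 to 55.5 under anti-PD-1. Klrb1c was at 4.82 to 9.16 against 14.8 to 22.1 CPM under isotype and overlapped under anti-PD-1. Eomes overlapped in both treatments, and Ncr1 reached at most 1.85 CPM. The 5 measured gamma-delta T cell genes, mostly Trgc2, summed to 103 to 189 against 240 to 327 and to 40.9 to 64.2 against 57.5 to 91.2 CPM. The delta constant gene Trdc went the other way, lower in the asGM1-positive library of every pair. It was at 1.27 to 8.31 against 0 to 2.49 CPM under isotype and at 0.0765 to 1.29 against 0.0432 to 0.187 under anti-PD-1. Trgc1 overlapped in both treatments, Trdv4 reached at most 0.217 CPM, and Sox13 was at 0 in every library. The 6 plasmacytoid dendritic cell genes summed to 709 to 924 against 663 to 712 CPM under isotype and to 632 to 731 against 596 to 806 under anti-PD-1. Irf8 made up most of each sum, at 495 to 739 CPM over the 12 libraries, and overlapped between populations. Siglech was at 46.2 to 71.3 against 0 to 0.236 CPM under isotype and at 25.1 to 34.8 against 0 to 0.489 under anti-PD-1. Ccr9, Ly6d and Tcf4 were also lower in every asGM1-positive library than in every asGM1-negative one of the same treatment. Bst2 was so only under anti-PD-1. The part of these genes in the difference was not tested.

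Between treatments the Trav effective number, averaged over both libraries of a pair, was 22.2 ± 7.28 under isotype and 14.5 ± 2.57 under anti-PD-1 (SD, n = 3 pairs; exact permutation p = 0.2, two-sided). For Trbv it was 7.91 ± 0.362 and 7.18 ± 0.431 (exact permutation p = 0.1). With 3 pairs against 3 the smallest p is 0.1, so the design could not pass the threshold of 0.05.

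**Figure D4:**
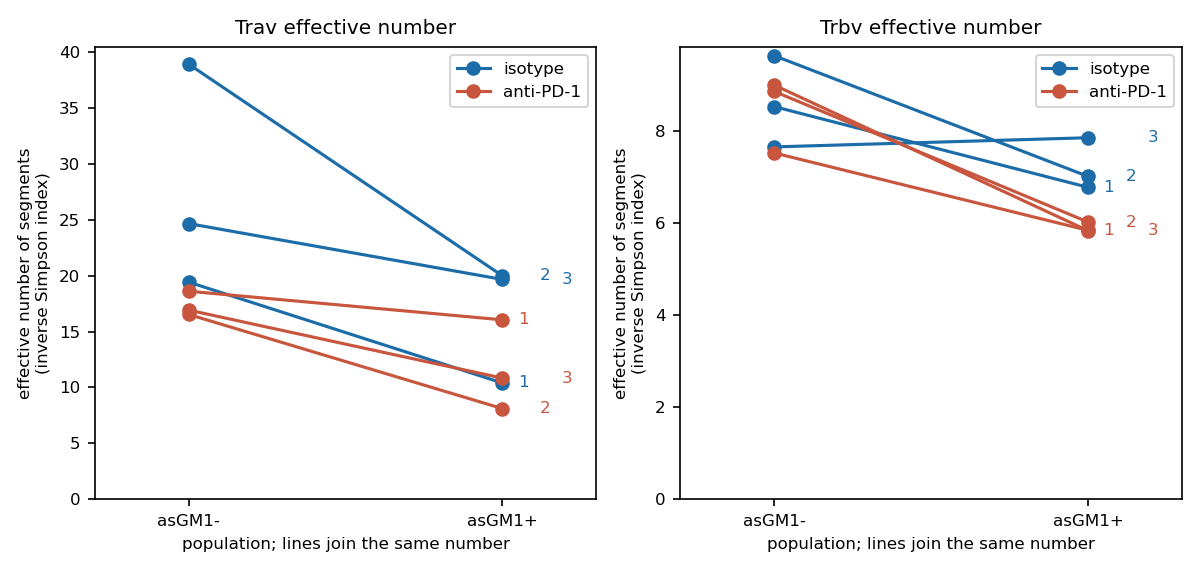
Effective number of Trav segments (left) and Trbv segments (right), as the inverse Simpson index, in asGM1- and asGM1+ libraries, with lines joining libraries of the same treatment and number (digit). All 6 Trav lines fall, and 5 of 6 Trbv lines fall, with isotype replicate 3 going from 7.65 to 7.85.

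No difference between populations was detected in the part of the RNA that the families made up. Trav members made up 0.0504 ± 0.00470% of all counts in asGM1-negative and 0.0510 ± 0.00519% in asGM1-positive libraries (SD, n = 6; exact sign-flip permutation p = 0.719, two-sided). Trbv members made up 0.0673 ± 0.0117% and 0.0668 ± 0.0213% (exact permutation p = 0.938). The highest Trbv share, 0.107%, was in anti-PD-1 asGM1-positive replicate 3, the library in which Trbv14 took 31.4%.

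V segments were also tested as single genes between groups of 3. The test was edgeR's quasi-likelihood test with Benjamini-Hochberg adjustment over all genes, at 0.05. Between populations under isotype 0 of 131 members passed, where 1.31% of all genes did. Of the 131 members 2 had an unadjusted p under 0.05, against 2323 of all 18657 genes tested. DESeq2 called 0 members and 4.28% of all genes. Under anti-PD-1, where 1.58% of all genes passed (0.654% of all genes being lower), 1 member passed, Trav3n-3, which was lower in asGM1-positive cells. DESeq2 called 4 members there and 4.57% of all genes. These members were the identical copies Trav3n-3 and Trav3d-3 and the identical copies Trav7d-5 and Trav7n-5.

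Between anti-PD-1 and isotype in asGM1-negative cells 0 members passed, against 8.57% of all genes. Of the members 18 Trav and 3 Trbv had an unadjusted p under 0.05, and DESeq2 called 8 members and 14.8% of all genes. In asGM1-positive cells 11 members passed, against 6.73% of all genes. Under anti-PD-1 10 of 109 Trav members were lower, where 3.01% of all genes were. Of 22 Trbv members 1, Trbv20, was higher, where 3.72% of all genes were. DESeq2 called 20 members and 12.1% of all genes. In the test of whether the populations responded differently, 0 members and 0% of all genes passed in edgeR, 3 Trav members had an unadjusted p under 0.05, and DESeq2 called 1 member, Trav3n-3, and 0.729% of all genes.

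Trav3n-3 and its identical copy Trav3d-3 had the smallest adjusted p-values among members between treatments in asGM1-positive cells. Trav3n-3 stood at 12.3, 10.1 and 12.5 CPM in isotype asGM1-negative libraries 1 to 3, at 11.5, 10.1 and 15.7 in isotype asGM1-positive, at 5.98, 8.99 and 9.67 in anti-PD-1 asGM1-negative and at 3.25, 3.25 and 2.95 in anti-PD-1 asGM1-positive ones. The anti-PD-1 asGM1-positive libraries lay below all others. Its log2 fold change in asGM1-positive cells was -1.98 ± 0.22 (SE) between anti-PD-1 and isotype (edgeR adjusted p = 0.000345). Between populations under anti-PD-1 it was -1.38 ± 0.22 (edgeR adjusted p = 0.0121). The difference between treatments passed under all 18 alternatives tried. The call between populations did not hold when any 1 of 3 anti-PD-1 libraries was left out: asGM1-negative replicate 2 (edgeR adjusted p = 0.0563), asGM1-negative replicate 3 (0.0545) or asGM1-positive replicate 3 (0.0624). The test of the difference between treatments in this response gave -1.48 ± 0.30 (edgeR adjusted p = 0.438).

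Trav3d-3, which cannot be told apart from Trav3n-3 over the bases compared, changed by -1.96 ± 0.34 between treatments in the asGM1-positive group (edgeR adjusted p = 0.00544) and kept that call in all 18 alternatives. Between populations under anti-PD-1 its value was -1.47 ± 0.33 (edgeR adjusted p = 0.0539). The related Trav3-3, 98.4% identical to both, behaved differently, with its high share confined to anti-PD-1 replicate 1 among the 12 libraries.

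Most other calls rested on segments that were high in some isotype libraries. Trav2 had 13.4, 1.55 and 0.504 CPM in the isotype group of asGM1-positive cells and 0.144, 0.105 and 0 in the anti-PD-1 group, and fell by 5.94 on the log2 scale (edgeR adjusted p = 0.0175). That call was lost without isotype asGM1-positive replicate 1 (edgeR adjusted p = 0.0520), or when asGM1-positive replicate 1 (0.0574) or 2 (0.0692) of anti-PD-1 was left out. Trav7d-6 was at 0.172, 29.9 and 26.5 CPM and at 0.302, 0.0873 and 0.0720, so that isotype replicate 1 lay within the anti-PD-1 range (log2 fold change -6.90, edgeR adjusted p = 0.0307). It passed in 11 of 18 alternatives, and was lost without isotype asGM1-positive replicate 2 (edgeR adjusted p = 0.0670) or 3 (0.0548) and when asGM1-positive replicate 1 (0.0908), 2 (0.123) or 3 (0.0922) of anti-PD-1 was left out. Its copy Trav7n-6, identical over 250 bases, was at 0.172, 31.8 and 28.0 against 0.374, 0.524 and 0.0864 CPM. The members called lower thus include both copies of these identical rows, and both Trav3n-3 and Trav3d-3. Trav5-4 was at 5.62, 1.32 and 37.6 against 0.115, 0.890 and 0.345 CPM. The others called lower were Trav3-1, Trav8-2, Trav9d-1 and Trav21-dv12, the last with at most 0.458 CPM in any library. Trav3-1, Trav5-4, Trav7n-6, Trav8-2, Trav9d-1 and Trav21-dv12 passed in 13, 9, 5, 12, 7 and 4 of the 18 alternatives. Trav7n-6 and Trav21-dv12 are named after their values were seen.

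Trbv20, the 1 member called higher, had 12.4, 0.888 and 5.48 CPM under isotype and 152, 115 and 25.3 CPM under anti-PD-1 in asGM1-positive cells, and these groups did not overlap (log2 fold change 3.97 ± 0.92, edgeR adjusted p = 0.0247). In asGM1-negative cells it was at 17.8, 3.37 and 4.52 against 64.7, 65.5 and 51.6 CPM. The Trbv20 call was lost without isotype asGM1-positive replicate 2 (edgeR adjusted p = 0.0507) or 3 (0.0721) and when asGM1-positive replicate 1 (0.0817) or 2 (0.0653) of anti-PD-1 was left out. Without anti-PD-1 asGM1-positive replicate 2 the count in asGM1-positive cells fell from 11 to 2 members, without replicate 1 to 4, without isotype asGM1-positive replicate 2 to 6, without replicate 3 to 7, and without anti-PD-1 asGM1-positive replicate 3 to 6. Calls over all genes in these fits are not set beside them, so the falls need not be particular to V segments.

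**Figure D5:**
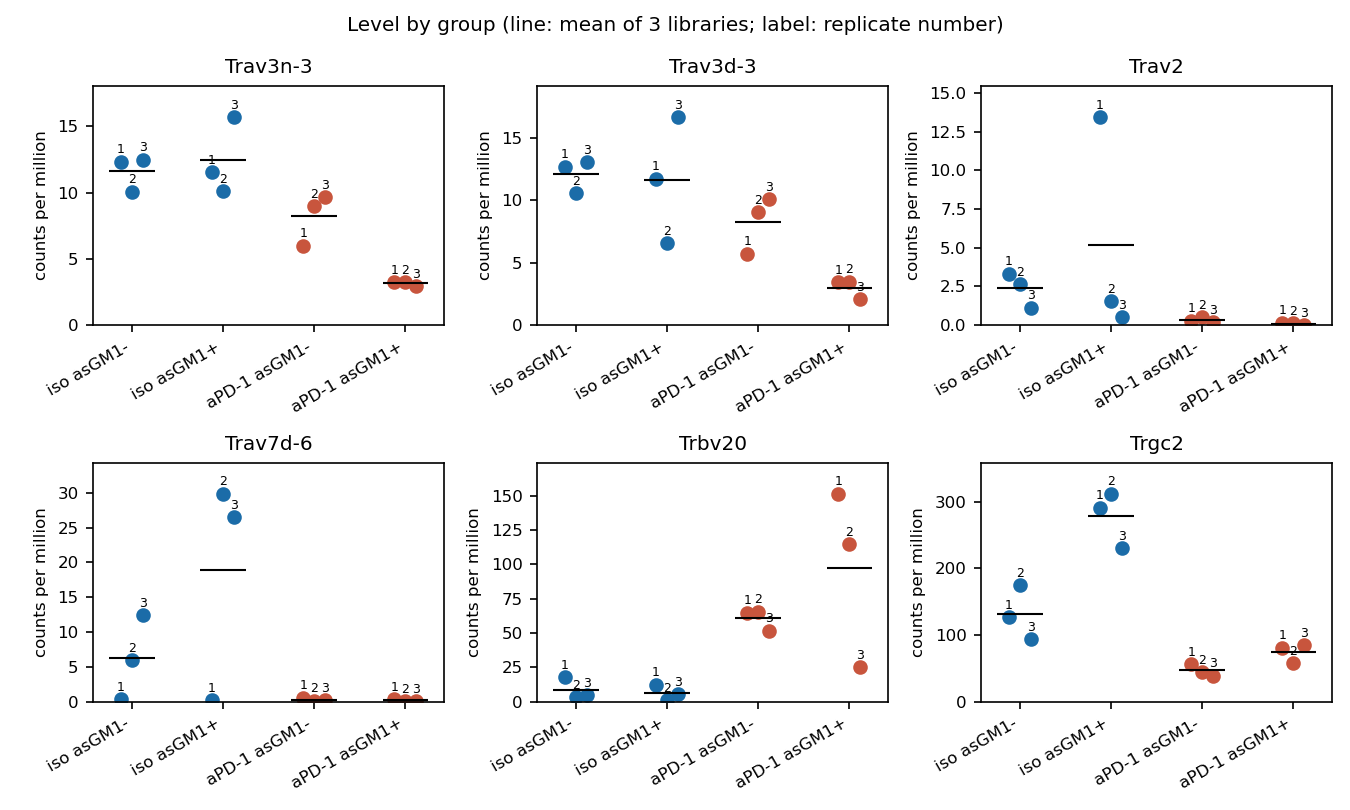
Levels (CPM) of 5 V segments called in asGM1-positive cells and of the gamma constant gene Trgc2, by group, with a point per library (digit: replicate number) and a line at the mean of 3. Trav3n-3 and Trav3d-3 are low in all 3 anti-PD-1 asGM1+ libraries, while Trav2 and Trav7d-6 are high in only some isotype libraries, such as Trav7d-6 at 29.9 and 26.5 in isotype asGM1+ replicates 2 and 3.

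Treatment and number were also fitted as a block, a pairing taken from correlations that include the V segments and not from the labels. With this block 6 members passed between populations under isotype, against 3.94% of all genes (2.11% lower and 1.83% higher). Trbv12-1, Trbv13-3, Trbv29, Trbv1 and Trbv30 were lower in asGM1-positive cells and Trav10n higher. Trbv1 fell by 1.63 on the log2 scale (edgeR adjusted p = 0.00695) and Trav10n rose by 1.18 (edgeR adjusted p = 0.0309). Trav10d, 99.2% identical to Trav10n, changed by 0.956 and did not pass (edgeR adjusted p = 0.0841). Trav10, 99.6% identical to Trav10d, changed by -0.743 and did not pass either (edgeR adjusted p = 0.373). Trbv30 rested on low counts, 53, 6 and 74 in isotype asGM1-negative and 0, 0 and 3 in isotype asGM1-positive libraries. Under anti-PD-1 8 members passed, all lower, against 4.78% of all genes (2.02% lower). They were Trav3n-3, Trav3d-3, Trav7d-5, Trav7n-5, Trav8-2, Trav9-1, Trbv17 and Trbv29. Among them Trav7d-5 and Trav7n-5 are identical over 250 bases, as are Trav3n-3 and Trav3d-3. Trbv29 passed in both treatments, where it fell by 1.81 and 1.69 on the log2 scale (edgeR adjusted p = 0.0290 and 0.0252). The blocked test of the difference between treatments called 0 members, against 0.0268% of all genes.

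Neither the alpha nor a beta constant gene passed between populations. Of the receptor list, 14 genes were tested. Trac, the alpha constant gene, ran from 1554 to 2197 CPM, and its log2 fold changes between populations, 0.13 ± 0.12 under isotype and -0.14 ± 0.12 under anti-PD-1, did not pass. Neither did those of Trbc1, Trbc2, Cd3d, Cd3e, Cd3g, Cd247, Cd8a or Cd8b1. Cd3g and Cd8a were lower under anti-PD-1 than under isotype in the asGM1-positive group, with log2 fold changes of -0.57 and -0.48 (adjusted p of edgeR = 0.0269 and 0.00838). The Trbc1 part of the beta constant counts was lowest in anti-PD-1 replicate 3, at 24.2% and 25.3%, and 28.1% to 44.4% in the other 10 libraries, and that pair also had the lowest Trbj1 part of Trbj counts, 18.5% and 16.2%.

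Genes of other receptor stages were low, apart from gamma constant genes. Rag1 and Rag2, which cut the segments for joining, were at 0 in every library. Dntt, which adds bases at the junction, had 82 to 203 counts in each asGM1-negative library and 0 in all asGM1-positive ones. Against a floor of 3 counts per library it was at least 43.8-fold lower in asGM1-positive cells under isotype and at least 45.5-fold under anti-PD-1 (adjusted p in edgeR's test, 0.00421 and 0.00507). The plasmacytoid dendritic cell genes Siglech, Ccr9 and Ly6d were also far lower in asGM1-positive libraries. Their part in the Dntt difference was not tested. Trgc2, a gamma constant gene, was at 127, 175 and 93.2 CPM in isotype asGM1-negative and 291, 312 and 230 in isotype asGM1-positive libraries, with no overlap, and rose by 1.08 on the log2 scale (edgeR adjusted p = 0.0446). Under anti-PD-1 it was at 56.3, 44.4 and 39.0 and at 80.7, 57.2 and 84.6, and was lower than under isotype in both populations (log2 fold changes -1.50 and -1.90, edgeR adjusted p = 0.00285 and 0.000646). Trgc4 was lower as well, by 1.97 and 2.69 on the log2 scale (edgeR adjusted p = 0.0317 and 0.0103). Trdc, the delta constant gene, was at 0 to 8.31 CPM and did not pass in any contrast, nor did Trgc1. Ptcra, the surrogate alpha chain of thymocytes, reached at most 0.332 CPM.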

How the data were processed

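The deposited table holds whole-number counts per gene. The submitters' processing notes name HISAT2, StringTie and build mm39; the sources used here state neither their roles, versions and settings nor how reads with several matches were counted. Both a TruSeq mRNA and a SMARTer low-input kit are named, per the labels. The members and gene lists were chosen with earlier results of these data known, and the sum of 1 marker list is not reported here. Named members were the 3 largest of each family, the largest or most over-represented of each library, up to 8 called per direction, and a list of invariant, beta and receptor genes.

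Shares and overlaps were computed in Python 3.11.15 (numpy 2.4.6, pandas 2.3.3) and tested by exact permutation. All 12 libraries were fitted with edgeR 4.0.16 (R 4.3.3, glmQLFit without robust estimation, filterByExpr, TMM, library sizes over all genes) with a mean per group, on 18657 genes including 131 members, at an adjusted p under 0.05. DESeq2 1.42.0 was an alternative. Sequences were compared with edlib 1.3.9.post1. The tests were checked on simulated data. For edgeR these had less spread between libraries than V segments show and no pairing, so that check does not extend to V segments.

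Over all genes tested, V and J segments included, deviations of same-numbered libraries of 1 treatment correlated at 0.121 to 0.298. Across treatments the values were -0.118 to 0.0497. Numbers were therefore taken to pair the libraries within a treatment only. The correlation without V and J segments was not computed, so this pairing may rest in part on the V segments themselves.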

Additional observations from a re-analysis of the deposited data

Results flagged for a closer look

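The Trav part of all counts was higher in the asGM1-positive library of all 3 isotype pairs, by a mean of 0.00441 percentage points, and changed by a mean of -0.00318 points under anti-PD-1, where it was lower in all 3 pairs. The exact permutation test of the difference between treatments gave p = 0.1, the smallest 3 pairs against 3 allow. Among 41 named V segments and Traj rows, 1 moved in opposite directions in the same way, Traj26, whose share of Traj counts was higher by a mean of 3.92 points in the 3 isotype pairs and changed by a mean of -0.466 points in the 3 anti-PD-1 pairs (exact permutation p = 0.1). The isotype mean rests mainly on replicate 1, at 9.33 points. No Trav or Trbv member did so.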

How the results depend on the processing

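Of 60 alternatives other than leaving out libraries, 48 kept the direction and the side of the threshold or, for counts of members, stayed within 1.5 times. With the replicate block, members called numbered 6 and 8 between populations (isotype, anti-PD-1) and 4 between treatments in asGM1-negative cells, where numbers are only shared. DESeq2 called 4 members between populations under anti-PD-1, 8 and 20 between treatments (asGM1-negative, asGM1-positive) and 1 in the interaction. Without the filter on low counts 6 members differed between treatments in asGM1-positive cells. For the Trbv effective number the difference was -2.55 with the Shannon index (exact permutation p = 0.03125) and -1.98 with no replicate block (exact permutation p = 0.01). Chosen after seeing the data were the fit that left out the asGM1-negative and asGM1-positive libraries of anti-PD-1 replicate 2, which called 0 members between populations under anti-PD-1 and 4 between treatments in asGM1-positive cells, and robust estimation in glmQLFit, tried after the calls were known, which called 9 in place of 11 and left the other counts as they were. Leaving out 1 pair at a time, all 60 values for overlap, over-represented segments and effective number kept their direction, but 5 pairs cannot give a p under 0.0833 (matching) or 0.0625 (sign flips). The overlap of matched over unmatched libraries was 37.7 to 48.5 points for Trav, 25.7 to 34.8 for Trbv, 25.0 to 26.1 for Traj and 9.86 to 17.5 for Trbj. The excess of over-represented segments was 12.1 to 17.0 (Trav) and 14.9 to 23.9 points (Trbv). Effective numbers differed between populations by -9.49 to -6.22 (Trav) and -2.41 to -1.74 (Trbv), and between treatments by -11.3 to -4.03 and -0.862 to -0.482. The family share of all counts differed by -0.000348 to 0.00187 percentage points (Trav) and -0.00471 to 0.00271 (Trbv), changing sign for Trav without isotype replicate 2 (-0.000348) or 3 (-0.000160) and for Trbv without isotype replicate 3 (0.00137) or anti-PD-1 replicate 2 (0.00271). Members called without 1 library numbered 0 to 0 and 0 to 2 between populations, 0 to 2 and 2 to 14 between treatments, and 0 to 0 in the interaction. Leaving out isotype asGM1-positive replicate 2 or 3 gave 2 members between populations under anti-PD-1, and leaving out isotype asGM1-positive replicate 1 gave 2 between treatments in asGM1-negative cells; isotype asGM1-positive replicate 2 or 3 or anti-PD-1 asGM1-negative replicate 2 gave 1 there. The cause of these changes was not tested. The counts of members in this paragraph are given without the share of all genes called under the same setting. Identical copies and low totals limit what single Trav rows can show.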
